A study of Mus musculus with 3 samples.

Results

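The genes described here encode the subunits of respiratory chain complexes I to IV. They were chosen by symbol alone and not by any measured value. Symbols were those that GENCODE gives for the Ensembl identifiers, and they had to begin with Nduf followed by a, b, c, s or v and a digit, be *Sdha* to *Sdhd*, or begin with Uqcr, Cox4i, Cox5 to Cox8, mt-Nd, mt-Co or mt-Cytb. The rule found 78 of the 27,998 genes in the table. Of these, 67 are encoded in the nucleus (37 of complex I, 4 of complex II, 8 of complex III and 18 of complex IV) and 11 in the mitochondrial genome (7, 1 and 3 of complexes I, III and IV). The cells came from the hearts of 12–16-week-old female mice carrying a GFP transgene, whose endothelium was sorted as CD31+VE-Cad+ and as negative for CD41, CD45, PDGFRA and PDGFRB. They comprised freshly sorted cells (0 h) and cells recovered, as GFP+CD31+VE-Cad+PDGFRA-, from culture at 24, 48, 72 or 96 h in co-aggregates of 25,000 endothelial cells with 150,000 PDGFRA+ stromal cells (PSCs), which descended from *Mesp1*-expressing mesoderm (*Mesp1* der) and had been sorted from the E11.5 aorta-gonad-mesonephros region. The co-aggregates were grown with IL-3, SCF and Flt3 ligand, time points were pooled, and 3 such pools were sequenced. There was no group without PSCs among the single-cell libraries used here, so that culture, time and PSCs cannot be told apart.

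The respiratory chain sits in the inner mitochondrial membrane. Complex I takes electrons from NADH and complex II takes them from succinate, complex III passes them from ubiquinol to cytochrome *c*, and complex IV hands them to oxygen. Complexes I, III and IV pump protons as they do so, and complex V uses the proton gradient to make ATP. Complexes I, III and IV combine subunits made on mitochondrial ribosomes from the mitochondrial genome with subunits imported from the cytosol, whereas every subunit of complex II is nuclear-encoded. Several small subunits of complex IV exist as isoforms of different tissues, for example in heart and skeletal muscle, lung or testis. Heart endothelium is known for a large contribution of glycolysis to its ATP, next to cardiomyocytes that are among the cells richest in mitochondria.

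The table held 9,562 cells with 252,339,042 UMIs (unique molecular identifiers, each marking 1 captured RNA molecule). The authors had assigned the cells to 7 clusters of 239 to 5,396 cells, with median UMIs per cell from 7,875 in cluster 1 to 36,065.5 in cluster 5. Barcodes carry 1 of 3 library suffixes with 3,507, 3,958 and 2,097 cells. No suffix could be traced to a pool and no cell to a time point, so that the matrix was treated as 1 sample and no test was run. The study describes its pools as independent, and values by suffix (in the order 1, 2, 3) are given as the spread. A set of 13 barcodes occurred in more than 1 library. Of the markers used to check the label, 6 endothelial genes summed to 30.2 to 41.6 UMIs per 10,000 UMIs in clusters 0 to 2 but to only 3.42 to 5.39 in clusters 3 to 6. The other lists set these clusters apart. Arterial genes reached 29.6 in cluster 0, germ and pluripotency genes 49.7 in cluster 3, stromal genes 20.8 in cluster 4, macrophage genes 18.6 and granulocyte genes 16.4 in cluster 5, and megakaryocyte genes 200.5 in cluster 6. Cluster 1 was endothelial by these genes, with high levels of genes that are induced by tissue dissociation. Other lists were above cluster 2 there too. Macrophage genes had 4.24 (5.98, 5.27 and 0.958 by library) against 0.0964, and erythroid genes 5.48 (3.71, 16.7 and 0.255) against 0.279. Stromal genes had 2.69 against 0.164, of which *Dcn* made up 2.35. Clusters were built from the same genes, so all differences between them are descriptions.

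Nuclear-encoded members took up the largest part of the RNA in cluster 3 and the smallest in cluster 1. Their summed level is given here as UMIs per 10,000 UMIs of the cluster. In cluster 2, which holds most cells and serves as the reference, it was 176, with 186, 161 and 179 in the 3 libraries. Cluster 3 reached 214 (225, 200.1 and 219) and cluster 1 had 138 (146, 128 and 132), so that every library ranked cluster 3 first and cluster 1 last. Cluster 0 had 156 (168, 141 and 158). The stromal and blood-like clusters lay close to the reference, at 168 in cluster 4 (177, 152 and 168), 184 in cluster 5 (191, 169 and 187) and 181 in cluster 6 (193, 166 and 182). Library 2 gave the lowest sum in each of the 7 clusters, and its spread from the other libraries was larger than the distance of clusters 4, 5 and 6 from cluster 2. Set against cluster 2 inside each library, clusters 5 and 6 were nevertheless higher every time and cluster 4 was lower every time. For cluster 5 the log2 ratios were 0.039, 0.067 and 0.063. Counting error was much smaller than the spread between libraries, with a 95% interval of 137 to 139 in cluster 1.

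The 11 mitochondrially encoded members followed another order. They summed to 259 UMIs per 10,000 in cluster 2 (253, 279 and 247 by library), to 322 in the arterial cluster 0 (311, 344 and 314) and to 326 in cluster 3 (301, 344 and 337). Clusters 4, 5 and 6 had 243, 239 and 260.1. In each library clusters 0 and 3 were above the other clusters. Cluster 0 thus combined more mitochondrially encoded RNA with less nuclear-encoded RNA of the same complexes, and its ratio of the former to the latter was 2.06 (1.86, 2.43 and 1.98), compared with 1.47 in cluster 2 (1.36, 1.73 and 1.39) and 1.30 in cluster 5 (1.21, 1.55 and 1.25). The 10 cell division genes summed to 12.8 in cluster 0 and to 20.7 in cluster 2. In a split chosen after the data were seen, the sum of the mitochondrial members was 305 in the 326 cells of cluster 0 with at least 2 division UMIs and 334 in the 252 cells without any, and the same split gave 254 and 301 in cluster 2. Library 3 of cluster 0 had the other order (309.7 and 305). With either kind of cell, cluster 0 was above cluster 2 in each library.

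**Figure D1:**
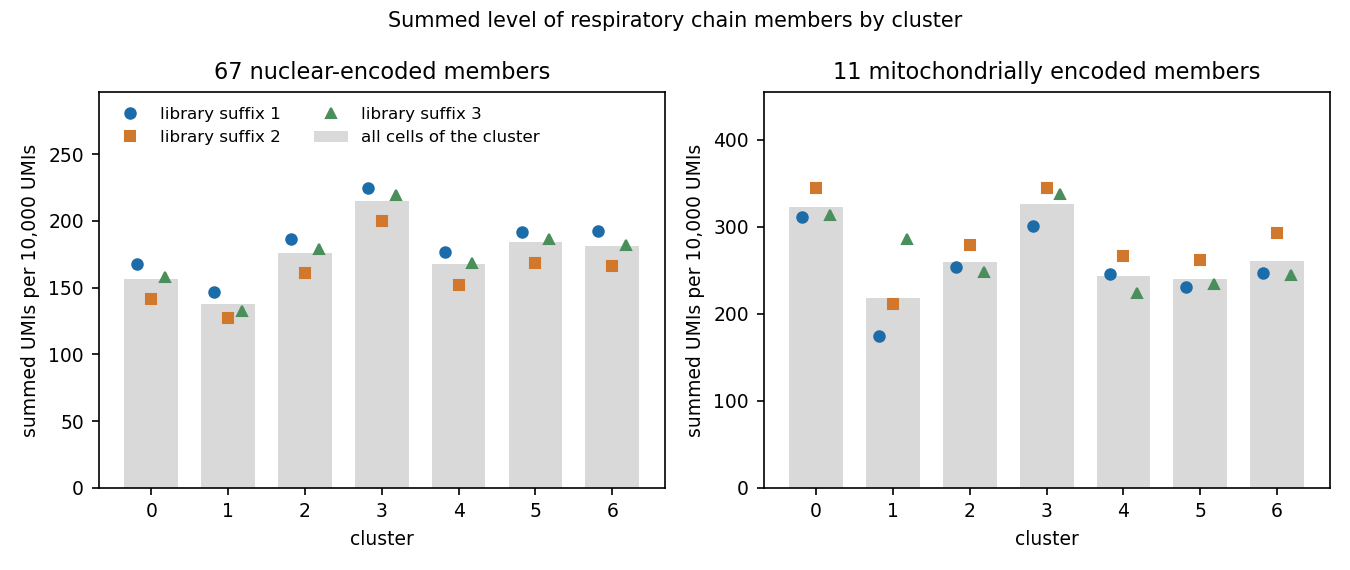
Summed UMIs of the nuclear-encoded (left) and mitochondrially encoded (right) members per 10,000 UMIs, by cluster, with bars for all cells and points for the 3 library suffixes. Nuclear members range from 138 in cluster 1 to 214 in cluster 3, while mitochondrial members reach 322 and 326 in clusters 0 and 3, and cluster 1 has the widest spread between libraries (174 to 285).

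In cluster 1 the sum of the mitochondrial members was 218 and differed widely between libraries, with 174, 211 and 285. Library 3 was above its own cluster 2 and the other libraries were below theirs. A few cells held much of this RNA. In cluster 1, 13 of 799 cells had over 10% of their UMIs in mitochondrial members, with a maximum of 84.7%, and they held 18.8% of all mitochondrial member UMIs of the cluster. In library 3 of that cluster, 8 of 236 cells held 38.2%. Without such cells, an alternative added after the data were seen, cluster 1 had 179 (164, 208 and 181) against 255 in cluster 2 (250, 275 and 242), a log2 ratio of -0.51 with -0.61, -0.40 and -0.42 by library. Since these cells were picked by the sum itself, the wider gap follows from leaving them out. Removing them moved the other clusters by less, for instance from 322 to 312 in cluster 0.

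Per cell, cluster 1 was again lowest. The median share of a cell's UMIs in mitochondrial members was 1.57% there, compared with 2.51% in cluster 2 and with 3.11% and 3.07% in clusters 0 and 3, and it lay between 2.36% and 2.48% in clusters 4 to 6. The quartiles of cluster 1 (1.09% and 2.21%) were below the median of every other cluster. For nuclear members the medians per cell of clusters 1, 2 and 3 were 136, 173 and 206 UMIs per 10,000. Cells with over 10% in mitochondrial members numbered 140 in all. They were 76 of the 5,396 cells of cluster 2, 17 of the 728 of cluster 0 and 10 of the 239 of cluster 3.

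**Figure D2:**
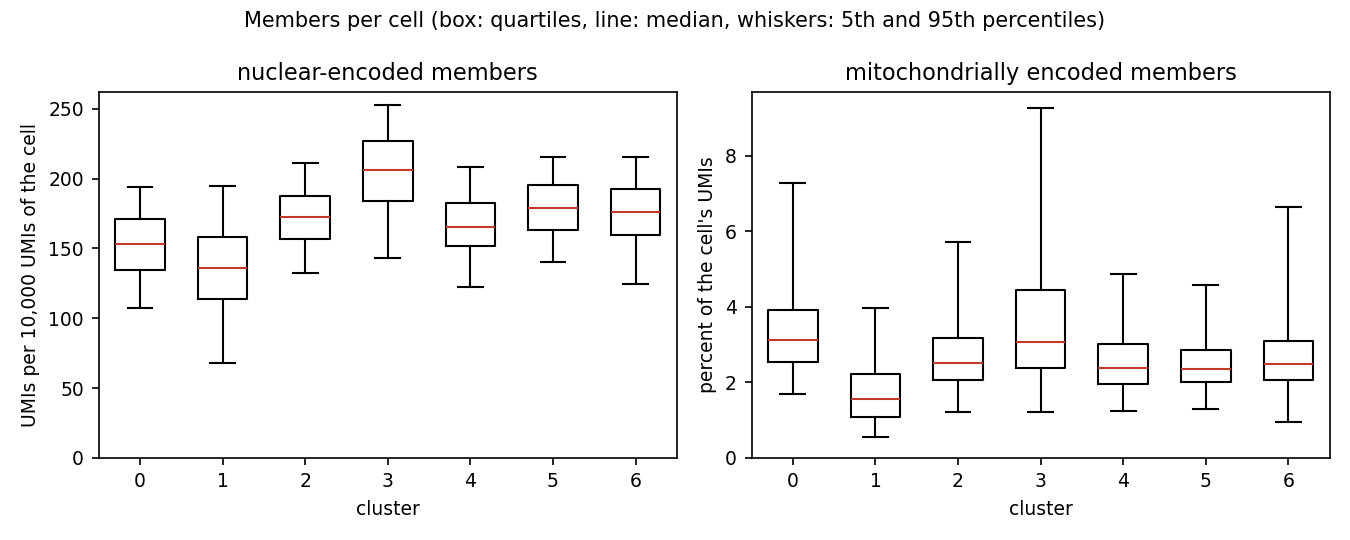
Level of the nuclear-encoded members (left, UMIs per 10,000 UMIs of the cell) and of the mitochondrially encoded members (right, percent of the cell's UMIs) per cell, by cluster. Boxes are quartiles with the median, and whiskers reach from the 5th to the 95th percentile. Cluster 1 is lowest in both, with medians of 136 and 1.57%.

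Nuclear members differed less between clusters than genes at large. A total of 61 nuclear and 11 mitochondrial members had at least 0.1 UMIs per 10,000 over all cells, as had 8,317 genes in all, and the 6 nuclear members below this level were *Ndufa4l2*, *Cox6a2*, *Cox7a1*, *Cox7b2*, *Cox8b* and *Cox8c*. Among the 61, the highest cluster exceeded the lowest by a median of 1.72-fold, compared with 2.85-fold over 8,313 genes with UMIs in every cluster. Under 1.5-fold were 18 of the 61 (29.5%) but 7.18% of these genes. Members and genes were not matched for level, and the part of level in this difference was not tested. *Cox6a1*, the common form of a small complex IV subunit, varied least, between 2.90 and 3.17 UMIs per 10,000. Cluster 3 was the highest for 25 members (41.0%, against 19.6% of all genes), and cluster 1 the lowest for 41 (67.2%, against 23.3% of all genes). In all 3 libraries cluster 3 was highest for 22 of these 25, and cluster 1 lowest for 30 of these 41.

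The comparisons with cluster 2 count a gene as higher or lower when it was past 1.5-fold with the same direction in each library. The 6 comparisons share cluster 2. In cluster 1 against cluster 2, 1 nuclear member was higher (1.64% of 61), compared with 23.1% of all genes, and 8 were lower (13.1%) compared with 22.3% of all genes. The median log2 ratio of the members was -0.38, while that of all genes was 0.00 and the interquartile range of the members ran from -0.51 to -0.18. The members were thus shifted down as a body, mostly by less than 1.5-fold. Without library 1 the count of lower members was 13, and without library 3 it was 5. In cluster 3 against cluster 2, 13 nuclear members were higher (21.3%, against 16.2% of all genes) and 3 were lower (4.92%, against 34.1% of all genes). In cluster 0 against cluster 2 the counts were 2 higher (15.5% of all genes) and 1 lower (10.1% of all genes), with a median of -0.18. *Cox4i2* was the member higher in cluster 1, and *Cox4i2* and *Cox6b2* were the 2 higher in cluster 0. Both lay near the level filter, with 0.128 and 0.119 UMIs per 10,000 over all cells. *Cox4i2* passed it through cluster 5, which held 2,724 of its 3,230 UMIs. *Cox6b2* had 551 of its 2,996 UMIs in cluster 3, where it was highest. Counts that rest on these genes therefore depend on the clusters where they are high.

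Clusters 4, 5 and 6 differed less from the reference. In cluster 4 against cluster 2, 2 nuclear members were higher (14.9% of all genes) and 1 was lower (12.1% of all genes). The 2 were again *Cox4i2* and *Cox6b2*. In cluster 5 against cluster 2, 4 were higher (13.6% of all genes) and 1 lower (23.8% of all genes). *Cox4i2* and *Cox6b2* were among the 4. The same counts, 4 and 1, held for cluster 6 against cluster 2, where 13.9% of all genes were higher and 26.3% lower. Between the blood-like clusters 5 and 6 themselves, 1 nuclear member, *Cox4i2*, was higher in cluster 5 (14.9% of all genes) and 2 were lower (11.7% of all genes). Median log2 ratios in these 4 comparisons were -0.08, 0.03, -0.02 and 0.03. In each of them the share of nuclear members counted was below that of all genes in either direction.

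**Figure D3:**
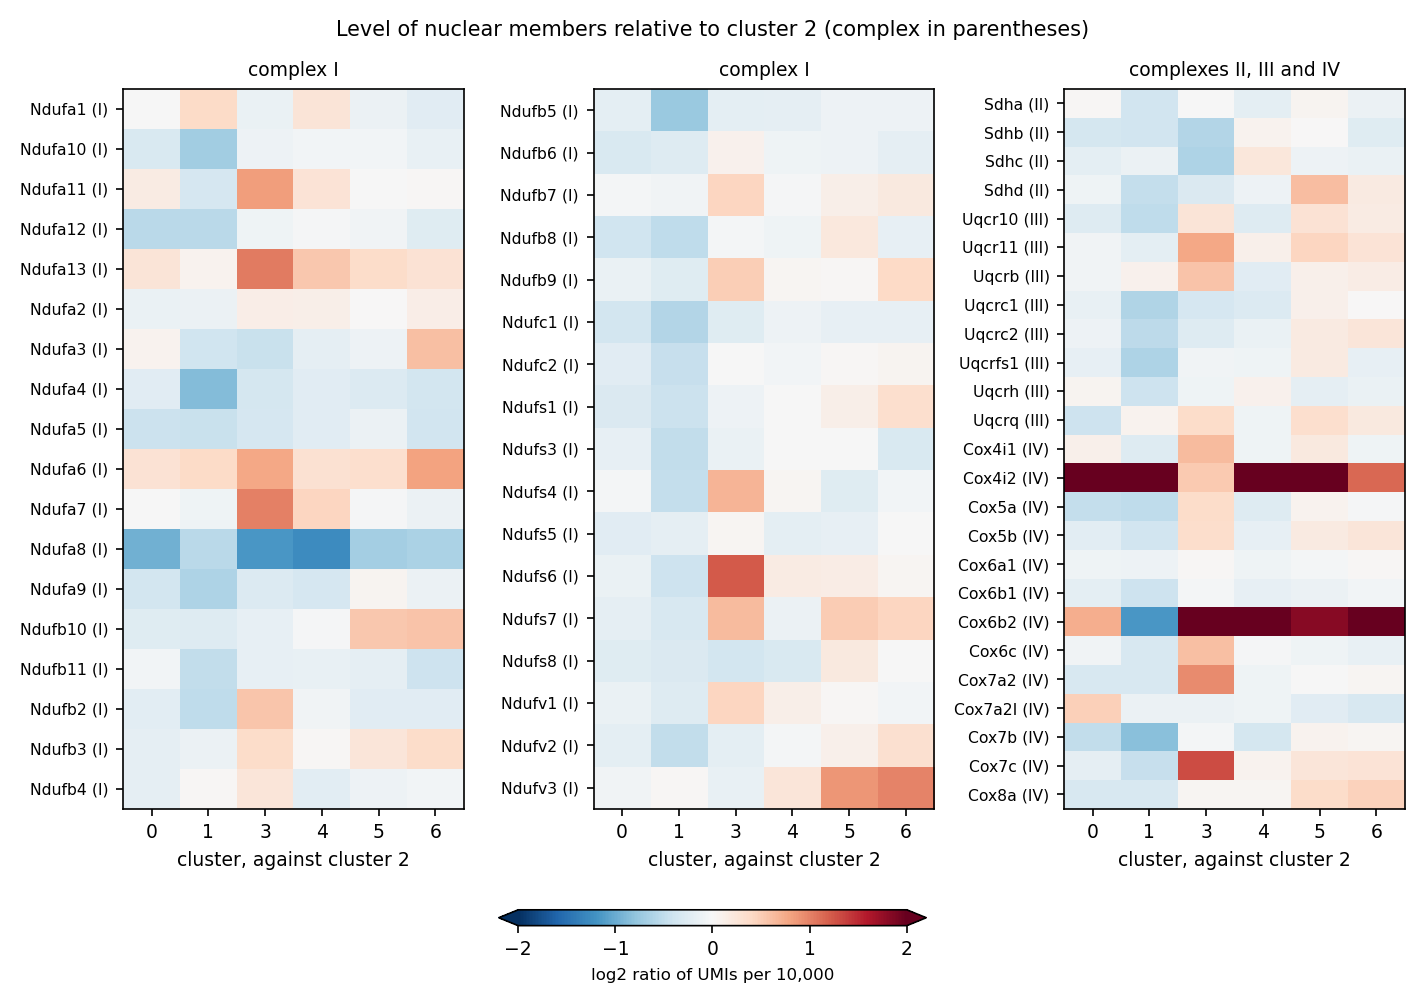
Log2 ratio of UMIs per 10,000 against cluster 2 for nuclear members with at least 0.1 UMIs per 10,000 (all but 1 of them), by cluster, with colours capped at -2 and 2. The column of cluster 3 holds the red cells of *Ndufs6*, *Ndufa13*, *Cox7a2* and *Cox7c*, the column of cluster 1 is mostly blue, *Ndufa8* is blue in every column, and *Cox4i2* and *Cox6b2* are the darkest rows.

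Complex I is the largest of the 4, and the symbol rule places *Ndufa4* in it. Its nuclear members summed to 81.2 UMIs per 10,000 in cluster 2, whereas clusters 3 and 1 had 89.4 and 63.0. In cluster 3, 7 of its 36 members above the level filter were higher than in cluster 2 (19.4%, near the 16.2% of all genes) and 1 was lower (2.78%, against 34.1%). *Ndufs6*, an accessory subunit near the NADH-oxidizing end of the complex, had 4.34 UMIs per 10,000 in cluster 3 (4.80, 3.82 and 4.38) against 1.86 in cluster 2 (1.90, 1.75 and 1.92), a log2 ratio of 1.22. It was between 1.40 and 2.09 everywhere else. *Ndufa11*, a membrane-arm subunit, had 3.77 (4.00, 3.54 and 3.76) against 2.11 (2.24, 1.92 and 2.15). *Ndufa13*, also known as GRIM-19 and required for assembly of the complex, had 4.65 in cluster 3 and 2.26 in cluster 2, with log2 ratios of 1.02 to 1.07 by library. Cluster 3 was above every other cluster for these 3 genes in every library. The others counted as higher there were *Ndufa6* (log2 ratio 0.78), and *Ndufa7* (1.01), *Ndufs4* (0.69) and *Ndufs7* (0.63), which were named after their values were seen.

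*Ndufa8*, a subunit that faces the intermembrane space, was highest in cluster 2. Its level in cluster 2 was 3.96 UMIs per 10,000 and hardly varied between libraries (3.99, 3.89 and 4.00). The next was cluster 1 with 2.72 (2.73, 2.73 and 2.70). It was 2.03 in cluster 0 (2.20, 2.002 and 1.89), 2.49 in cluster 5 (2.54, 2.56 and 2.37) and 2.55 in cluster 6 (2.58, 2.57 and 2.50). The lowest levels were 1.77 in cluster 3 (1.70, 1.88 and 1.71) and 1.66 in cluster 4 (1.75, 1.69 and 1.54). It was counted as lower in 5 of the 6 comparisons with cluster 2, and in those of clusters 0, 4, 5 and 6 it was the one nuclear member that was. These log2 ratios ranged from -0.64 in cluster 6 to -1.25 in cluster 4. No library of any other cluster reached the lowest library of cluster 2.

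Further complex I members marked cluster 1 and the blood-like clusters. *Ndufa4*, which is named after complex I and grouped there by its symbol but is now assigned to complex IV, had the highest level among those with a Nduf name, 7.93 over all cells. It was 8.68 in cluster 2 (9.69, 7.77 and 8.52) but 4.74 in cluster 1 (5.37, 4.39 and 4.07), a log2 ratio of -0.87. *Ndufb5* had 2.08 in cluster 1 against 3.48 (-0.74), and *Ndufa10* and *Ndufa9* had log2 ratios of -0.70 and -0.62, the former named after its value was seen. *Ndufv3*, a subunit of the NADH-oxidizing module, was highest in the blood-like clusters, at 2.09 in cluster 5 (2.19, 1.79 and 2.19) and 2.25 in cluster 6 (2.40, 1.91 and 2.42) against 1.13 in cluster 2 (1.20, 1.02 and 1.16). *Ndufa3* set cluster 6 apart from cluster 5, with 2.22 (2.60, 1.76 and 2.19) against 1.35 (1.56, 1.09 and 1.29), or -0.71 for cluster 5 on the log2 scale. *Ndufa6* was also higher in cluster 6 than in cluster 2, by 0.81 on the log2 scale. Of those below 1.5-fold, *Ndufa6* and *Ndufa1* both had a log2 ratio of 0.38 in cluster 1, *Ndufa6* had 0.29 and *Ndufa13* 0.27 in cluster 0, and *Ndufa12* had -0.54 in cluster 0. *Ndufa9* had -0.34 in cluster 4, *Ndufa4* had -0.28 in cluster 5, and *Ndufb11* and *Ndufa5* had -0.41 and -0.38 in cluster 6. *Ndufb8* and *Ndufa6* had 0.38 and -0.48 in cluster 5 against cluster 6.

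Complex II, which is also an enzyme of the citric acid cycle, was lowest in clusters 1 and 3. Its 4 members summed to 4.47 UMIs per 10,000 in cluster 3 (4.47, 4.65 and 4.21) against 5.73 in cluster 2 (5.89, 5.71 and 5.59), a log2 ratio of -0.36 with -0.40, -0.30 and -0.41 by library. Cluster 1 had the same 4.47 (4.71, 4.44 and 4.14), but no member of the complex was past 1.5-fold there (23.1% of all genes were higher and 22.3% lower). In cluster 3, *Sdhb*, the iron–sulfur subunit, had 1.27 against 1.91 and *Sdhc*, a membrane anchor, 0.622 against 0.958, and both were past 1.5-fold in the sum of all libraries. They were the 2 of the 4 members counted as lower there (50%, against 34.1% of all genes). *Sdha*, the catalytic flavoprotein, was level at 1.34 and 1.36. *Sdhd*, the other anchor, had its highest level in cluster 5 with 2.30 (2.47, 2.30 and 2.10) against 1.504 in cluster 2 (1.65, 1.49 and 1.38), and it exceeded cluster 6 by 0.43 on the log2 scale, below 1.5-fold.

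The 8 nuclear members of complex III summed to 25.1 UMIs per 10,000 in cluster 2, whereas clusters 3 and 1 had 29.3 and 20.7. In cluster 3, 1 of the 8 was counted as higher than in cluster 2 (12.5%, near the 16.2% of all genes). In cluster 1, 2 of the 8 were counted as lower (25%, near the 22.3% of all genes). *Uqcrh*, the hinge protein of the complex, had the highest level of them over all cells (5.04) and stayed between 3.92 and 5.55 across clusters. In cluster 3, *Uqcr11* was the member counted as higher, with 4.42 (4.78, 3.805 and 4.72) against 2.59 (2.89, 2.14 and 2.68). In cluster 1, 2 were counted as lower, the core protein *Uqcrc1* and the Rieske protein *Uqcrfs1*, with log2 ratios of -0.61 and -0.62. These 3 were named after their values were seen.

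Complex IV had the largest shift in cluster 3. Its nuclear members summed to 91.3 UMIs per 10,000 there (96.5, 84.2 and 93.4) against 63.7 in cluster 2 (67.7, 57.8 and 65.2), a log2 ratio of 0.52 with 0.51, 0.54 and 0.52 by library. The lowest library of cluster 3 was above the highest of any other cluster. Complex I had 0.14, complex III 0.23 and complex II -0.36 in the same comparison. *Ndufa4*, now assigned to complex IV, is counted in complex I in these sums. *Cox7c*, a small membrane subunit, had the widest range of the members at 1 UMI per 10,000 or more, with 17.1 in cluster 3 (18.7, 15.0 and 17.6), 6.93 in cluster 2 (7.49, 5.87 and 7.34) and 5.03 in cluster 1 (5.37, 4.31 and 5.02). *Cox7a2* had 9.81 in cluster 3 (10.5, 8.88 and 10.0) and 5.08 in cluster 2 (5.47, 4.52 and 5.20). *Cox4i1*, the member with the highest level in the complex, had 15.2 in cluster 3 (16.1, 14.4 and 15.1) and 9.87 in cluster 2 (10.5, 9.40 and 9.69). *Cox6c* was past 1.5-fold as well (0.61 on the log2 scale, named after its value was seen). *Cox7c*, *Cox7a2*, *Cox4i1*, *Cox6c* and *Cox6b2* were the 5 of 13 members above the level filter counted as higher there (38.5%, against 16.2% of all genes). *Cox6b2* lay near that filter and had 551 of its 2,996 UMIs in cluster 3, so that its place in this share depends on cluster 3 itself. The shift was uneven, since *Cox6a1* and *Cox6b1* had 3.17 and 5.43 in cluster 3 against 3.11 and 5.61 in cluster 2. Processed pseudogenes of several of these genes exist in the mouse genome, and how reads were shared between them and their parents was not examined.

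Among the other complex IV members, *Cox7b* had 2.50 UMIs per 10,000 in cluster 1 (2.63, 2.48 and 2.34) against 4.45 in cluster 2 (4.53, 3.95 and 4.82), a log2 ratio of -0.83. Its log2 ratios of -0.50 in cluster 0 and -0.35 in cluster 4 were below 1.5-fold. *Cox7a2l*, which helps to join complexes III and IV into supercomplexes, was highest in the arterial cluster 0 with 3.88 (3.95, 4.02 and 3.69) against 2.79 in cluster 2 (2.80, 2.78 and 2.78). This was 0.48 on the log2 scale, below 1.5-fold, and every library of cluster 0 exceeded all libraries of the other clusters. In the split by division UMIs given above, it was 4.21 in the cells of cluster 0 without any (4.29, 4.49 and 3.92) and 3.54 in those with at least 2. The same groups of cluster 2 had 3.74 (4.09, 3.54 and 3.62) and 2.69, and the 47 cells of cluster 5 without any had 3.86 (4.002, 3.39 and 4.07). Cluster 0 was thus above cluster 2 with either kind of cell in each library, whereas in library 3 it was below cluster 5 among cells without division UMIs.

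Promoters of members with unlike patterns are shown here to compare their letters: *Ndufa8*, highest in cluster 2, *Ndufs6*, highest in cluster 3, and the pair of *Cox6b1*, which is level between clusters, and *Cox6b2*, which is not. Each runs from 250 bases before to 50 after the RefSeq start on GRCm38.p6. Capitals mark CGCATGCG, the core of the site of NRF1 (nuclear respiratory factor 1), AAGATGGC, that of YY1, and CCGGAAG, that of GABPA (nuclear respiratory factor 2), on either strand. AAGGTCA, the site of oestrogen-related receptors, and ACGTG, the hypoxia response element, were searched as well. *Ndufa8* lies on chr2:36049289-36049588, *Ndufs6* on chr13:73328433-73328732, *Cox6b1* on chr7:30626065-30626364 and *Cox6b2* on chr7:4753045-4753344, all on the minus strand.
Ndufa8: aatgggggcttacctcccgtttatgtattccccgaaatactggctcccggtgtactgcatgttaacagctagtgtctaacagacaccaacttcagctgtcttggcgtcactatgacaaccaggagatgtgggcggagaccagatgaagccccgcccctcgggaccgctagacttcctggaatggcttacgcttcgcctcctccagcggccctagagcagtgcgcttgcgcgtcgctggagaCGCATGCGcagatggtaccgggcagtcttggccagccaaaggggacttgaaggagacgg
Ndufs6: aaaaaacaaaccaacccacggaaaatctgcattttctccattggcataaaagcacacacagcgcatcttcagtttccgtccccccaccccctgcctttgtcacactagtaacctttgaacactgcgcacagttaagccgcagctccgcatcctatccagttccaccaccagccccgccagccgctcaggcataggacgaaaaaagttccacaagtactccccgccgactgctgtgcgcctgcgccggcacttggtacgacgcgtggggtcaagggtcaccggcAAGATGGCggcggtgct
Cox6b1: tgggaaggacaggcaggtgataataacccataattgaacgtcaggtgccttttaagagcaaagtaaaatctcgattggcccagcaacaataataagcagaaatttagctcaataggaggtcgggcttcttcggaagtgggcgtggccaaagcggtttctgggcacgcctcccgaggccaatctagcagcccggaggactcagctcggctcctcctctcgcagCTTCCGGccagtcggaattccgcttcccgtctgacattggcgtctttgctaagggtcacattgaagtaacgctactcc
Cox6b2: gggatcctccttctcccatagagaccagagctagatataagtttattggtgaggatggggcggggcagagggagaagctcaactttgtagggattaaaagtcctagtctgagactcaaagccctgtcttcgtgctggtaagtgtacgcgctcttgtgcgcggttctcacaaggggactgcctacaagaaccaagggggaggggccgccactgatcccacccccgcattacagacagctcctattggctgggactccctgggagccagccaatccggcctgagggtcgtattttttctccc
The NRF1 letters of *Ndufa8* lie next to the start, the YY1 letters of *Ndufs6* inside the transcribed part, and the GABPA letters of *Cox6b1* before the start on the reverse strand. *Cox6b2* held none of the 5 motifs in this window. A window was found for 53 of the 67 nuclear members. Those without one included *Cox4i1*, *Cox4i2*, *Cox6a2*, *Cox6c*, *Cox8c*, *Ndufa2*, *Ndufa4l2*, *Ndufb9*, *Ndufs1*, *Sdhc*, *Uqcrb*, *Uqcrc2* and *Uqcrq*. Of these 53, 50 were above the level filter, as were 6,625 of all genes with a window. NRF1 letters occurred in 5 of the 50 members (10.0%), in 5.25% of the 6,625 genes and in 1.87% of all 32,851 windows. YY1 letters had 7 (14.0%), 6.20% and 2.75%. Receptor letters had 4 (8%), 3.61% and 4.72%. These shares were higher in the members, on few windows. GABPA letters had 11 (22.0%), 23.2% and 8.86%, and hypoxia letters 9 (18%), 30.9% and 19.6%, so that neither was more frequent in the members than in genes of the same level filter.

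The isoforms of complex IV had the sharpest cluster patterns. *Cox4i2* (chr2:152754173-152765037), the form of subunit 4 known from lung and from oxygen-sensing cells, had 0.446 UMIs per 10,000 in cluster 5, with 0.468, 0.387 and 0.460 by library. It had 0.185 in the stromal cluster 4 (0.171, 0.248 and 0.157), 0.0915 in cluster 1 (0.0488, 0.0916 and 0.154), and at most 0.0453 in the others, with 0.00875 in cluster 2. Its share of the pair with *Cox4i1* was thus 3.78% in cluster 5 (95% interval for counting error 3.64% to 3.92%), 1.96% in cluster 4 and 0.0886% in cluster 2. In cluster 5 its 2,724 UMIs came from 680 of 1,572 cells, and no cell had more than 40. Clusters 0, 1, 4 and 5 were counted as higher than cluster 2, with log2 ratios of 2.37, 3.39, 4.40 and 5.67. It was the member counted as higher in cluster 5 than in cluster 6 (4.52 on the log2 scale). The others counted as higher in cluster 5 than in cluster 2 were *Cox6b2*, *Ndufv3* and *Sdhd*.

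Cluster 5 holds macrophage genes and granulocyte genes, and in splits chosen after the data were seen *Cox4i2* was higher in cells with *Mpo*, a gene of early granulocytes. Cells with *Mpo* but without *C1qb* (326 cells, median 42,948.5 UMIs) had 0.694 UMIs per 10,000, with 0.752, 0.618 and 0.670 by library. Cells with *C1qb* but without *Mpo* (682 cells, median 34,907.5 UMIs) had 0.367, with 0.348, 0.367 and 0.389. Those with neither had 0.349 (0.378, 0.245 and 0.390). By division UMIs, *Cox4i2* had 0.455 in the 1,462 cells of cluster 5 with at least 2 (0.480, 0.392 and 0.469). The 47 cells of cluster 5 without any had 0.126 (0.0834, 0.163 and 0.136). In cluster 4 the same groups had 0.152 and 0.281, the opposite order, except in library 3. Nuclear members as a whole had 192 in the *Mpo* cells and 177 in the *C1qb* cells, and mitochondrial members 229 and 245, in the same order in every library for the nuclear members but not in library 2 for the mitochondrial ones (261 and 258). The whole granulocyte list ran the other way, since it summed to 10.4 in the 680 cells with a UMI of *Cox4i2* (median 47,530 UMIs) and to 23.8 in the 892 cells without (median 26,865.5 UMIs). Macrophage genes had 15.8 and 22.2. Depth differed between these cells, and its part was not tested.

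*Cox6b2* (chr7:4751792-4753094), the form of subunit 6B known from testis, was highest in the germ and pluripotency cluster 3. It had 0.772 UMIs per 10,000 there (0.870, 0.708 and 0.720). Clusters 6, 4 and 5 followed with 0.331, 0.231 and 0.168, and cluster 2 had 0.0478. Its share of the pair with *Cox6b1* was 12.5% in cluster 3 (13.4%, 12.1% and 11.54% by library), 5.76% in cluster 6 and 0.506% in cluster 1. Every cluster but cluster 1 was counted as higher than cluster 2, and cluster 1 was counted as lower (18 UMIs). It was also lower in cluster 5 than in cluster 6, with a log2 ratio of -0.97.

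Other rare isoforms were highest in cluster 3 too. *Cox7a1* (chr7:30184144-30186078), the heart and muscle form of subunit 7A, had 0.280 UMIs per 10,000 in cluster 3 (0.318, 0.227 and 0.299), where cardiomyocyte genes were at 0.0981, and 0.0421 or less in every other cluster. Its share of the pair with *Cox7a2* was 2.78% in cluster 3 (2.41% to 3.18% by counting) and 0.171% in cluster 2, and 98 of the 239 cells of cluster 3 had a UMI. *Cox8c*, the testis form of subunit 8, had 15 UMIs in all, of which 13 were in cluster 3. *Cox7b2*, another testis form, had 26 UMIs in cluster 3 (0.0364 per 10,000), 9 in cluster 2 and none in the other clusters. The share of *Cox8c* in its pair with *Cox8a* was only 0.227% in cluster 3, with 0.400%, 0.0529% and 0.188% by library. Library 1 held 9 of the 13 UMIs, and without it the share was 0.115%.

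The heart forms *Cox6a2* and *Cox8b* had their highest levels in cluster 1, at low counts. *Cox6a2* had 31 UMIs in 26 cells of cluster 1, which is 1.25% of the pair with *Cox6a1*, against 0.383% in cluster 5 (71 UMIs) and 0.0480% in cluster 2 (21 UMIs). By library the share in cluster 1 was 0.784%, 0.353% and 2.64%, with 20 of the 31 UMIs in library 3, and without that library it was 0.641%. *Cox8b* had 21 UMIs in 19 cells of cluster 1, 0.396% of the pair with *Cox8a*, and at most 0.0126% in any other cluster. A list of cardiomyocyte genes was also higher in cluster 1 than in cluster 2. All 12 genes of that list had UMIs in cluster 1, and they summed to 1.05 UMIs per 10,000 (0.689 to 1.59 by library), against 0.126 in cluster 2 (0.103 to 0.152). The 19 cells with *Cox8b* had 5.43 of these markers and the others 0.955, and the 26 cells with *Cox6a2* had 2.87 and the others 0.973. In cluster 4 the list reached 3.97, of which *Actc1* alone made up 2.91, and there *Cox8b* had 1 UMI and *Cox6a2* had 7. Cluster 6 had 0.873 of the list, with 1 UMI of *Cox8b* and 2 of *Cox6a2*. Cluster 5 had 0.115 of it, with 4 UMIs of *Cox8b* and 71 of *Cox6a2*. Whether RNA from cardiomyocytes had a part in these values was not tested.

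*Ndufa4l2* (chr10:127514967-127517154), the hypoxia-induced relative of *Ndufa4*, was highest in clusters 1 and 4. It had 0.301 UMIs per 10,000 in cluster 1 (0.390, 0.140 and 0.282), 5.97% of the pair with *Ndufa4*, from 253 UMIs in 57 cells. In cluster 4 it had 0.324 (0.234, 0.275 and 0.451), 4.16% of the pair, from 383 UMIs in 47 cells. A single cell of library 3 gave 106 of these, and without it cluster 4 had 0.235 (0.234, 0.275 and 0.208). Cluster 2 had 0.0112 and cluster 3 had none, which allows a level of up to 0.0042 (3 UMIs) by counting error. Pericyte and smooth muscle genes, all 9 of which had UMIs in clusters 1 and 4, were higher in the cells with it inside these clusters. They summed to 29.3 (43.1, 41.9 and 15.5 by library) in the cells of cluster 4 with a UMI of *Ndufa4l2*. Those without had 8.14 (6.31, 7.75 and 10.5), so that the gap was smallest in library 3. In cluster 1 the sums were 12.2 (4.30, 41.8 and 14.0) and 1.08 (0.662, 1.20 and 1.61). Over whole clusters the list had 10.2 in cluster 4, 1.92 in cluster 1 and 1.84 in cluster 0, while *Ndufa4l2* had 0.0159 in cluster 0. By library the list had 0.984, 2.91 and 2.58 in cluster 1, which is not the order of *Ndufa4l2*. *Pdgfrb*, a gene of this list, had 0.442 in cluster 4 and 0.0452 in cluster 1. Fresh endothelium had been gated as PDGFRB-, whereas no such gate is given for the cells recovered from culture. The part of pericytes and smooth muscle cells in the values of *Ndufa4l2* was not tested. The gene shares 32 bases of its span with *Shmt2* on the other strand.

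**Figure D4:**
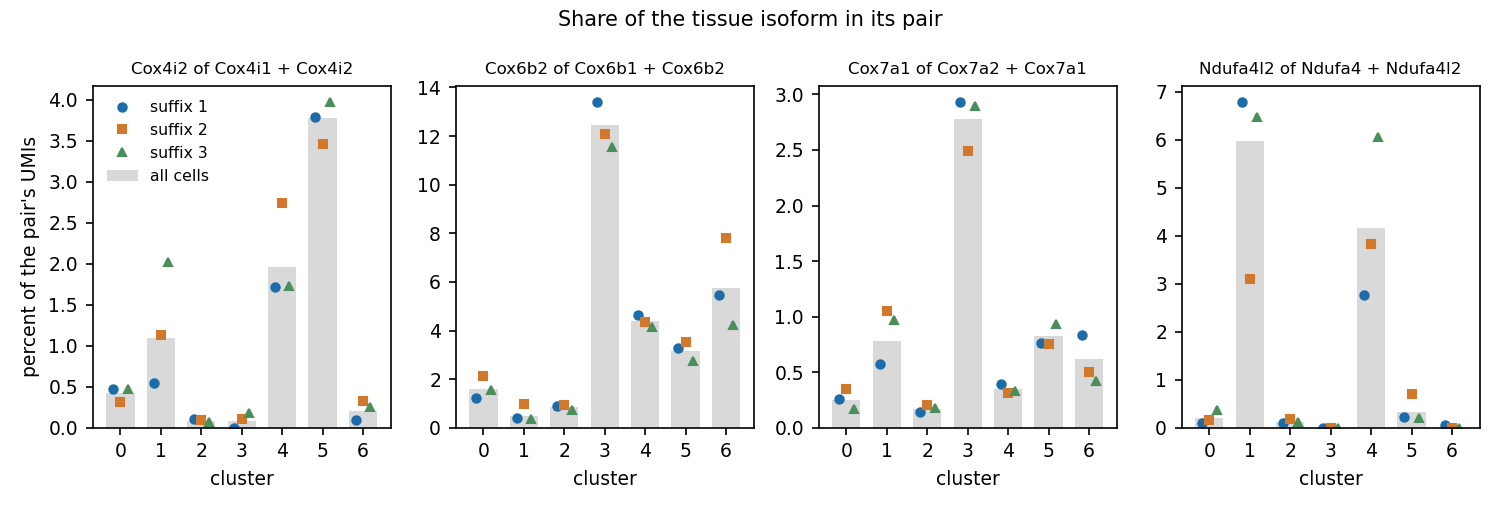
Share of the tissue isoform in percent of the UMIs of its pair, by cluster, for *Cox4i2*, *Cox6b2*, *Cox7a1* and *Ndufa4l2*, with bars for all cells and points for the 3 library suffixes. *Cox4i2* peaks in cluster 5 (3.78%), *Cox6b2* and *Cox7a1* in cluster 3 (12.5% and 2.78%), and *Ndufa4l2* in clusters 1 and 4 (5.97% and 4.16%).

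The mitochondrial genome is transcribed as long precursors from both strands, and these are then cut into single RNAs. Of the 11, 10 lie on the plus strand of the reference and *mt-Nd6* (bases 13552 to 14070) on the minus strand. *mt-Nd6* made up no more than 0.226% of the UMIs of all 11 in any cluster. *mt-Nd4l* and *mt-Nd4* overlap by 7 bases on the same strand, and *mt-Nd5* and *mt-Nd6* by 14 bases on opposite strands. None of the 11 was counted as higher or lower in clusters 0, 4, 5 and 6 against cluster 2 or in cluster 5 against cluster 6. In each direction of these comparisons 10.1% to 26.3% of all genes were counted. In cluster 0 the increase was shared unevenly, with log2 ratios of 0.43 for *mt-Co1* and *mt-Co3*, 0.40 for *mt-Nd4*, 0.37 for *mt-Cytb* and 0.31 for *mt-Nd3*, but -0.02 for *mt-Nd1* and -0.20 for *mt-Nd6*.

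In cluster 3, *mt-Co1*, the catalytic subunit of complex IV, was counted as higher (0.69 on the log2 scale). This was 1 of the 11 (9.09%, against 16.2% of all genes), or 2 without library 1. It had 58.2 UMIs per 10,000 there (53.8, 62.1 and 59.1) and 35.995 in cluster 2 (34.6, 39.3 and 34.4). The other mitochondrial subunits of complex IV, *mt-Co2* and *mt-Co3*, had log2 ratios of 0.36 and 0.43. *mt-Nd5* had 0.55, *mt-Nd3* 0.39, *mt-Nd4* 0.24, *mt-Nd1* 0.18 and *mt-Cytb* 0.08, while *mt-Nd2*, *mt-Nd4l* and *mt-Nd6* had -0.02, -0.03 and -0.04. By complex, mitochondrial members of complex IV had 0.48 and those of complex I had 0.17. Nuclear and mitochondrial members of complex IV thus had larger ratios in cluster 3 than those of complex I (0.52 and 0.14 for the nuclear ones, with *Ndufa4* counted in complex I).

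Cluster 1 differed most in the make-up of its mitochondrial members. *mt-Co1* made up 22.7% of their UMIs (24.8%, 23.8% and 20.4% by library) and between 13.9% and 17.8% in the other clusters. *mt-Cytb*, the cytochrome *b* of complex III, made up 12.1% in cluster 1 and 16.5% in cluster 2. The ratio of *mt-Co1* to *mt-Cytb* was 1.88 in cluster 1 (2.04, 2.05 and 1.65), 1.29 in cluster 3 and 0.842 in cluster 2 (0.782, 0.939 and 0.818). The ratio of *mt-Co1* to *mt-Co2* was 1.40 in cluster 1 (1.60, 1.49 and 1.18), 0.712 in cluster 2 (0.693, 0.719 and 0.725) and between 0.796 and 0.896 elsewhere. No library of any other cluster reached the lowest library of cluster 1 in either ratio to *mt-Co2* or *mt-Co3*. *mt-Nd5* made up 2.26% in cluster 1 and 1.42% in cluster 2, and *mt-Nd4* 11.4% and 9.47%.

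As levels, *mt-Cytb* and *mt-Nd1*, a core subunit of complex I, were the members counted as lower in cluster 1 against cluster 2 (2 of 11 or 18.2%, against 22.3% of all genes). These counts rested on single libraries, with none lower without library 1, 1 without library 2 and 5 without library 3. *mt-Cytb* had 26.3 UMIs per 10,000 (21.2, 24.5 and 35.1) against 42.8 (44.3, 41.8 and 42.1). *mt-Nd1* had 14.5 (11.7, 14.6 and 18.7) against 22.1 (21.3, 23.4 and 21.7). *mt-Co1* went the other way, with 49.5 (43.3, 50.2 and 58.1) against 35.995. Without the cells that had over 10% in mitochondrial members, 5 members were counted as lower, with log2 ratios of -0.9997 for *mt-Nd3*, -0.99 for *mt-Cytb*, -0.85 for *mt-Co2*, -0.84 for *mt-Nd1* and -0.75 for *mt-Co3*. *mt-Co1* was still above cluster 2 in each library (0.29, 0.35 and 0.32) and made up 24.5% of the mitochondrial member UMIs.

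**Figure D5:**
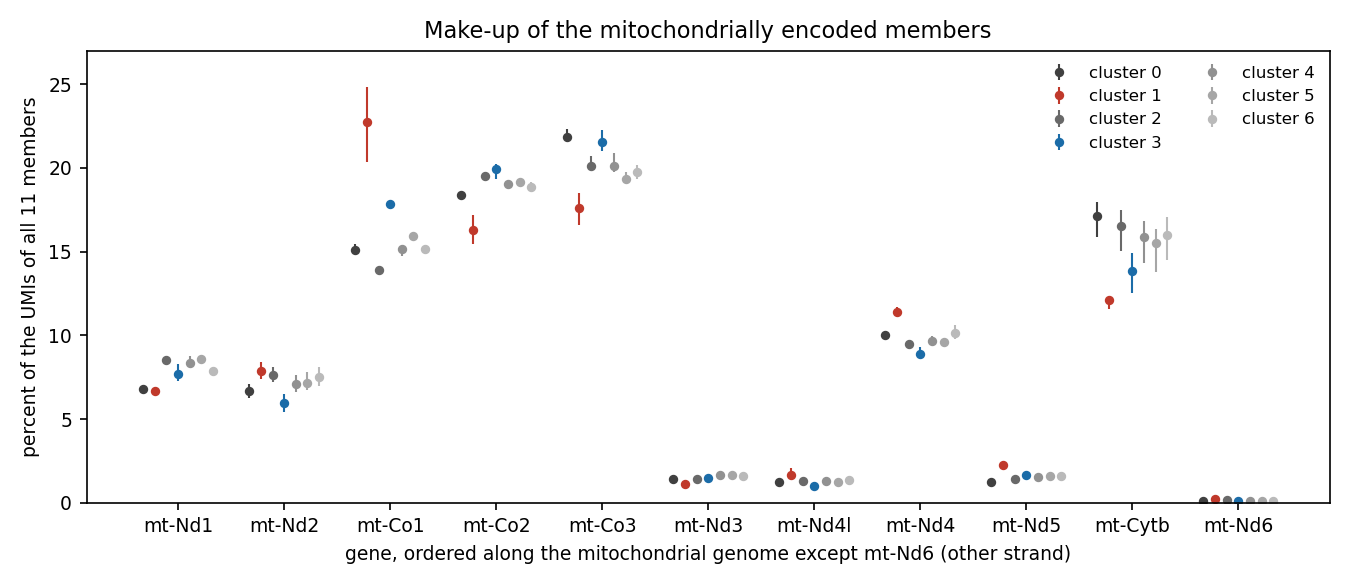
Percent of the UMIs of all 11 mitochondrially encoded members held by each, by cluster (points, all cells), with lines from the lowest to the highest of the 3 library suffixes. In cluster 1 (red) *mt-Co1* is at 22.7% and *mt-Cytb* at 12.1%, apart from the other clusters, and cluster 3 (blue) is next with 17.8% for *mt-Co1*.

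Depth and cell state moved with cluster 1. It had the lowest median UMIs per cell (7,875), its 2 nuclear-retained RNAs *Malat1* and *Neat1* summed to 177 UMIs per 10,000 (159.7 to 206 by library) against 38.6 in cluster 2 (37.4 to 39.9), and its 8 dissociation stress genes to 36.003 (31.6 to 44.1) against 4.58 (4.51 to 4.65). Its 10 cell division genes summed to 4.35 against 20.7. No gene of these 3 lists was at 0 in either cluster. Their part in the lower levels of the members was not tested, nor was that of the macrophage, erythroid and stromal genes given above. In the 106 cells of cluster 1 with at least 2 division UMIs nuclear members were at 147 and in the 476 cells without any at 135, both below the 176 and 175 of the same groups in cluster 2. Mitochondrial members were at 267 in the former cells (220, 270 and 352 by library). The same group of cluster 2 had 254 (248, 273 and 243), so that only library 3 of cluster 1 was above it. In the cells without any they were at 191 (156, 172 and 247) against 301 in cluster 2 (305, 320 and 286).

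Other genes of the mitochondrion and of protein synthesis were compared in the same way. Among 17 nuclear subunits of complex V, none was higher and 9 were lower (52.9%, against 22.3% of all genes) in cluster 1 against cluster 2, with a median log2 ratio of -0.63, beside -0.38 for the nuclear members. In cluster 3 against cluster 2, 1 of the 17 was higher and 1 lower (5.88% each, against 16.2% and 34.1% of all genes), with a median of 0.06. Proteins of the mitochondrial ribosome, which makes the 11 mitochondrial subunits, had 77 genes above the level filter. In cluster 3 against cluster 2, 16 of them were higher (20.8%, against 16.2% of all genes) and none was lower (34.1% of all genes). In cluster 5, 10 were higher (13.0%, near the 13.6% of all genes) and 1 was lower (1.30%, against 23.8%). In cluster 1, 1 was higher (1.30%, against 23.1% of all genes) and 29 were lower (37.7%, against 22.3%). Among 85 proteins of the cytosolic ribosome, 3 were higher (3.53%) and 39 lower (45.9%) in cluster 1. In cluster 3, 15 of these were higher (17.6%, near the 16.2% of all genes) and 4 lower (4.71%), with a median of 0.41. Of 42 assembly factors of complexes I to IV, 9 were higher and 9 lower in cluster 3 (21.4% each, against 16.2% and 34.1% of all genes). In cluster 1, 3 were higher (7.14%, against 23.1%) and 10 were lower (23.8%, near the 22.3% of all genes).

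A list of 14 electron carriers and regulators held 9 genes above the level filter, of which no more than 2 were counted in any comparison. *Cycs*, which encodes the cytochrome *c* that shuttles between complexes III and IV, was the gene counted as lower in cluster 0 (1.66 UMIs per 10,000 against 3.32 in cluster 2) and in cluster 1 (1.81). *Cyc1*, a catalytic subunit of complex III whose symbol the rule does not take, had 1.62, 2.37 and 2.65 in clusters 0, 2 and 3. In cluster 3 the genes counted as higher were *Tfam*, which packages and transcribes mitochondrial DNA (0.876 against 0.545), and *Lrpprc*, which stabilises mitochondrial mRNAs (0.737 against 0.460). *Nrf1* and *Gabpa*, the factors whose motifs are given above, were level, between 0.302 and 0.409 and between 0.262 and 0.344. *Ppargc1a*, a coactivator of mitochondrial genes, was at 0.0350 or less in every cluster. *Esrra*, an oestrogen-related receptor, was counted as higher in clusters 1 and 5 (0.1795 and 0.203 against 0.119).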

How the data were processed

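Libraries were of the 10x Genomics 3′ v3 type. Reads had been aligned by the authors to mm10 (GRCm38) with Cell Ranger 3.1.0. They aggregated the 3 libraries, removing batch effects at that step, and the counts they deposited are raw UMIs for each Ensembl gene in each cell. Leiden clusters were made by the authors with scanpy 1.8.2 (10 neighbours), and the deposited normalized table was not used. The annotation used for counting is not given in the sources used here. Symbols were taken from GENCODE M21 and were found for 27,722 identifiers, whereas 276 had none. UMIs count the 3′ ends of molecules, so levels were not scaled by gene length.

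From these counts, UMIs were summed per cluster and library suffix and divided by the UMIs of the cluster, times 10,000. Genes with at least 0.1 UMIs per 10,000 over all cells were compared, and a gene was counted as higher or lower when past 1.5-fold with the same direction in each library. Intervals are exact at the 95% level and cover counting error only. The 3 samples fall into 1 group, cells could not be assigned to named pools and clusters were built from the same counts, so the matrix was taken as 1 sample and no p-value is given. The study describes the pools as biological triplicates, and which suffix belongs to which pool is not given in the sources used here. The authors kept singlets with at least 5,000 UMIs by their methods, although 90 cells of the table have fewer. No doublets were called or removed beyond that, and an alternative left out the 5% of cells with the most UMIs in each library. The counting rule was tried on simulated data with counting error only, in which 200 genes were changed by 2-fold or more. Such changes are well past the 1.5-fold limit. The trial thus says nothing about genes near that limit or about real spread between libraries. Alternatives also left out each library, took all UMIs but mitochondrially encoded ones as denominator, averaged cells or libraries, kept cells with at least 5,000 UMIs, dropped the minimum level and used a 2-fold limit.

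Barcodes shared by 2 libraries (13, or 26 cells) were kept. Named are all mitochondrial members, both genes of 7 isoform pairs, the nuclear member with the highest level in each complex, the 5 with the largest ratio between clusters among those at 1 UMI per 10,000 or more, and in each comparison the 3 with the largest ratio in each direction. 1 member that this rule names is not reported here. Others are marked in the text as chosen after their values were seen. Members and lists were chosen with earlier results of these data known. Promoters are those of RefSeq. Scripts ran in Python 3.11.15 with scipy 1.17.1, pandas 2.3.3 and numpy 2.4.6.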

Additional observations from a re-analysis of the deposited data

How the results depend on the processing

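The mitochondrial sum of cluster 6 against cluster 2, with a log2 ratio of 0.0063 and libraries on both sides of 0, was -0.028 without library 2 and -0.012 without cells over 10% mitochondrial. No other log2 ratio of a summed level changed sign under the settings tried. Counts of members were small and moved more. Shares of all genes were taken only under the main rule. Member counts under the other settings can thus not be set against genes at large. At 2-fold, nuclear members higher than cluster 2 numbered 1, 5, 2 and 1 in clusters 0, 3, 5 and 6 (2, 13, 4 and 4 at 1.5-fold). Lower ones numbered 0, 1, 1, 0 and 0 in clusters 0, 1, 3, 5 and 6 (1, 8, 3, 1 and 1) and 0 in cluster 5 against cluster 6 (2), and no mitochondrial member passed in clusters 3 and 1 (0 against 1 and 2). With no minimum level, nuclear members higher numbered 5, 4 and 7 in clusters 1, 4 and 5 (1, 2 and 4) and 3 in cluster 5 against cluster 6 (1), and those lower 2 in clusters 0, 4 and 5 and 3 in cluster 6 (1 each). Averaging over cells gave 2 mitochondrial members higher in cluster 3 (1), nuclear members lower of 2, 1 and 0 in clusters 0, 3 and 6 (1, 3 and 1), log2 ratios of the nuclear sum of 0.24, -0.045 and 0.014 in clusters 3, 4 and 6 (0.29, -0.068 and 0.044), and of the mitochondrial sum of 0.092 in cluster 6 (0.0063) and -0.21 in cluster 5 against cluster 6 (-0.12). Averaging libraries gave 1 mitochondrial member lower in cluster 1 (2) and -0.081 for the nuclear sum in cluster 4. Without the 5% of cells with the most UMIs, 2 mitochondrial members were higher in cluster 3 (1), and cluster 5 had 0.050 for the nuclear sum (0.069) and -0.075 for the mitochondrial sum (-0.11). Without cells over 10% mitochondrial, an alternative chosen after seeing the data, 5 mitochondrial members were lower in cluster 1 (2). Leaving out each library in turn gave 5 (without library 3) to 13 (without library 1) nuclear members lower in cluster 1, 0 (without library 1) to 5 (without library 3) mitochondrial members lower in cluster 1, 1 to 2 (without library 1) mitochondrial members higher in cluster 3, and nuclear log2 ratios of -0.077 to -0.059 (cluster 4), 0.053 to 0.074 (cluster 5) and 0.027 to 0.054 (cluster 6). The causes of these changes were not tested.

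No paired analysis was possible because no result comes from a test, since clusters were built from the same counts and cells could not be assigned to the 3 samples. Values inside each library are given in its place. Counts below about 3 UMIs per cluster set the limit for the rarest isoforms. Clusters 3 and 6 are small, with 32 and 49 cells in library 3.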
